A study of Naumovozyma castellii with 10 samples.

Results

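Nuclear tRNAs of the budding yeast Naumovozyma castellii were examined in small RNA libraries from 5 groups of cells. The set holds every feature annotated as tRNA on chromosomes 1 to 10, with 1 entry kept for each interval and strand, which gave 281 intervals of 8407 features in all. For 270 of them the last letter of the identifier gives the amino acid that the tRNA carries, so that NCAS_0Ctrna1F is a phenylalanine tRNA. The other 11 intervals have identifiers without such a letter. The letters cover all 20 amino acids, with between 4 genes (cysteine) and 22 genes (lysine) for each.

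A tRNA is the adaptor that carries an amino acid to the ribosome and reads the codon with its anticodon loop. Nuclear tRNA genes are transcribed by RNA polymerase III as precursors, whose ends are trimmed, whose introns, where present, are cut out by a splicing endonuclease, and whose bases are heavily modified. Small RNA libraries hold pieces of tRNAs and some short tRNA molecules, and modified bases and folded ends limit which of them can be ligated and copied, so the density of a tRNA here is not its abundance in the cell.

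All strains were MATalpha ura3-1 ho. The wild type (WT) and the upf1 strain (upf1::kanMX6, without the nonsense-mediated decay helicase Upf1) were untreated, as was the strain that carries dcr1 together with upf1::kanMX6 (dcr1 upf1). Dicer is the RNase III enzyme that cuts double-stranded RNA into small interfering RNAs. Cells of the WT strain (WT CHX) and of a dcr1 strain (dcr1 CHX) received cycloheximide, an inhibitor of translation elongation, at 100 µg/mL for 15 min. Each genotype is a single strain, and each group has 2 libraries that the labels call biological replicates. Untreated dcr1 cells are not among the groups, so loss of Dicer is compared within upf1 cells and within treated cells, and these pairs of groups also differ in strain. Cultures grew at 25 °C to an OD600 of 0.5, 25 µg of RNA was mixed with 1 µg of RNA from Schizosaccharomyces pombe as a spike-in, and RNA under 80 nt was cut from 15% gels. Values are densities, the reads per nt of an interval scaled by the authors to the spike-in.

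Between 4692 and 15634 reads per library fell on nuclear tRNAs. That was 0.0752% to 0.225% of the reads on all features in the 6 libraries with Dicer and 7.48% to 11.1% in the 4 without, where all features together held 129559 to 148330 reads against 3169072 to 6904640. UPF1 itself, listed as NAM7, had 0 reads in all 4 libraries of the strains that lack it and 13 and 3 reads in WT. DCR1 has no symbol in the gene table used here, so its deletion was not checked. Of the 281 intervals, 50 had no read in any library and 102 had under 10 reads over all 10, whereas 17 had 1000 or more. Since every cell uses tRNAs of all 20 kinds, an interval listed at 0 is not taken as a tRNA that is absent. In each fit 218 of the 281 passed the filter on low densities and 63 were not tested. Copies of a tRNA gene can be identical, and how reads with several matching places were treated is not given in the sources used here. Values of single tRNAs are uncertain for this reason. The sum over all genes of an amino acid does not depend on how reads were split among copies of equal length. Where copies differ in length it does, and reads that were dropped or counted at every place would also change it.

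In WT, glutamate tRNAs had the highest summed density, with 4.57 and 9.33 in the replicates, and histidine tRNAs the lowest, with 0.0202 and 0.0238. The means of these sums differed 316-fold, a figure that rests on 3 and 3 reads for histidine. Alanine (3.35 and 5.60), leucine (3.45 and 2.85), arginine (3.10 and 2.80), glycine (1.72 and 3.16) and phenylalanine (2.12 and 2.19) followed glutamate in that order. Each of these overlapped its neighbour in the order, and over all 20 amino acids 11 of 19 neighbouring sums overlapped in WT. Phenylalanine was separated from lysine (1.44 and 1.33), the next below it. Methionine (0.0535 and 0.0784), aspartate (0.0741 and 0.0397) and histidine formed the low end, although 9, 14 and 8 genes carry these letters. Methionine had 8 and 10 reads in WT and aspartate 11 and 5, so values at the low end are imprecise. Across the 20 amino acids, the number of genes and the log2 summed WT density had a Pearson r of 0.522, a description over amino acids of the same libraries.

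How far a sum rested on 1 gene differed between amino acids. NCAS_0Ctrna1E (chromosome 3, 1092528 to 1092599, minus strand) held 84.6% of the glutamate density in WT and NCAS_0Ctrna1G (chromosome 3, 600936 to 601006, minus strand) 81.2% of that of glycine. NCAS_0Atrna2C held 82.6% for cysteine, NCAS_0Ctrna2P (chromosome 3, 1026093 to 1026164, minus strand) 76.6% for proline and NCAS_0Btrna12K (chromosome 2, 980435 to 980530, plus strand) 72.8% for lysine. The other tRNAs with the highest WT densities were NCAS_0Jtrna4L (chromosome 10, 142238 to 142357, minus strand), NCAS_0Atrna12R (chromosome 1, 2572477 to 2572548, plus strand), NCAS_0Btrna14A (chromosome 2, 1502115 to 1502187, plus strand) and NCAS_0Atrna6R (chromosome 1, 394485 to 394556, plus strand). The 5 densest lettered intervals over all libraries held 25.7% to 47.9% of the lettered density of a library. At the low end, the densest gene held 18.0% of the WT density of histidine, 27.5% of that of alanine and 31.0% of that of isoleucine. Of the intervals named so far, NCAS_0Atrna12R overlaps a XUT (an Xrn1-sensitive transcript) and NCAS_0Btrna14A a CUT (a cryptic unstable transcript) on the opposite strand, and no tRNA interval overlapped another class on its own strand.

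**Figure D1:**
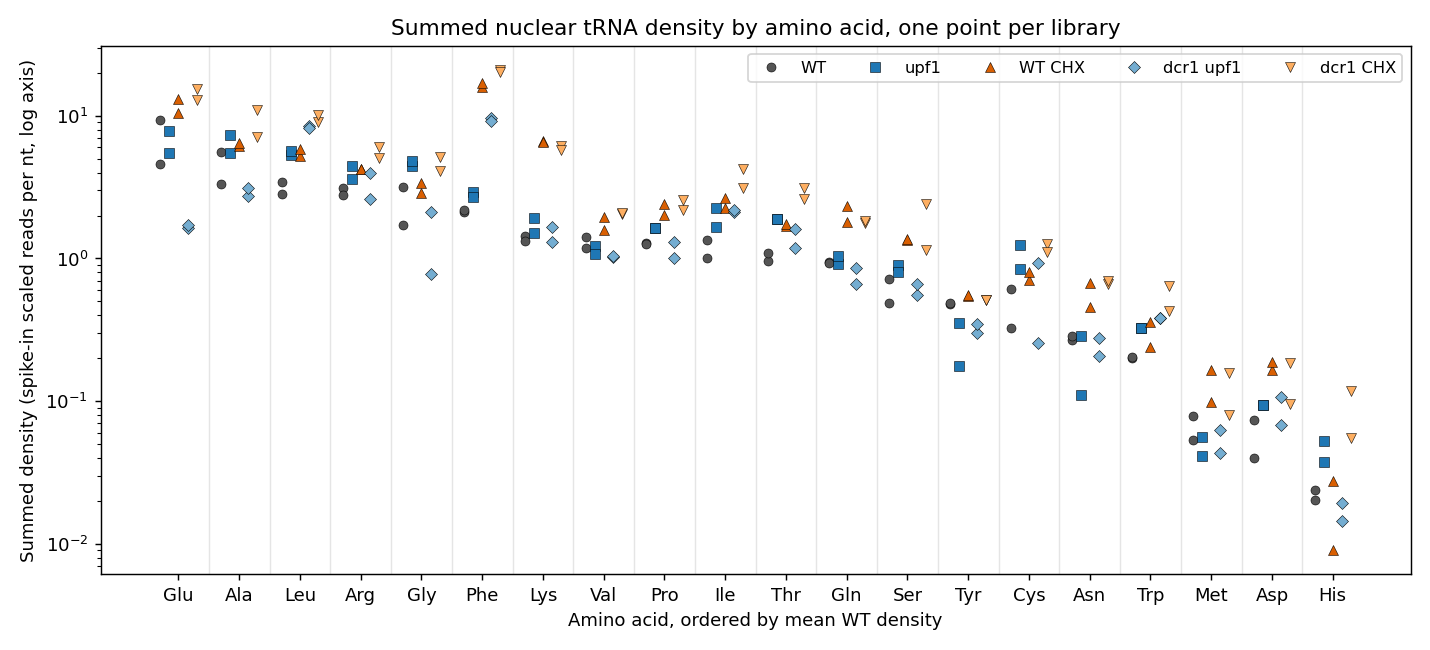
Summed density (spike-in scaled reads per nt, log axis) of the nuclear tRNAs of each amino acid, with 1 point per library in 5 groups of 2. Phenylalanine and lysine stand well above WT in both groups treated with CHX, and glutamate in dcr1 upf1 (1.65 and 1.71) lies below every other group.

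Over all 281 intervals the density summed to 28.9 and 36.0 in WT, 43.4 and 43.2 in upf1, and 71.3 and 76.2 in WT CHX. Of the groups without Dicer, dcr1 upf1 had 35.9 and 40.8, dcr1 CHX 95.2 and 90.2. The groups treated with CHX were above the 3 untreated groups without overlap, dcr1 upf1 was below upf1, and dcr1 CHX was above WT CHX. Means were 1.34 times WT in upf1 and 2.27 times WT in WT CHX, 0.886 times upf1 in dcr1 upf1, and 1.26 times WT CHX in dcr1 CHX. Each comparison had an exact two-sided permutation p of 0.333, the smallest that 2 against 2 libraries can give. In a bulk culture, a change in each cell and a change in the share of cells cannot be told apart.

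With loss of UPF1 the amino acid sums were called higher about as often as all features, and their median log2 difference of 0.48 lay below the 1.22 of all features in the same fit. Leucine and threonine tRNAs rose in every fit that left out 1 library, leucine by 0.81 log2 units (SE 0.13, limma adjusted p = 0.000819) and threonine by 0.89 (SE 0.11, limma adjusted p = 0.000197). Tyrosine tRNAs fell by 0.96 on the log2 scale (SE 0.28, limma adjusted p = 0.0197). Phenylalanine rose by 0.39 log2 units (SE 0.10, limma adjusted p = 0.0117), and glutamate, the densest sum, had a log2 difference of 0.00 (SE 0.32, limma adjusted p = 0.997).

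The leucine sum was 3.45 and 2.85 in WT and 5.34 and 5.69 in upf1, and that of threonine 0.966 and 1.08 in WT and 1.89 and 1.90 in upf1. Neither sum overlapped between the groups, but both were picked among the called sums, and the share of all features without overlap was not computed. In both 1 interval led, NCAS_0Jtrna4L for leucine and, singled out after its values were seen, NCAS_0Etrna11T for threonine (0.552 and 0.587 in WT, 1.11 and 1.12 in upf1). Tyrosine was at 0.483 and 0.488 in WT and at 0.354 and 0.176 in upf1, where the replicates lay further apart than in any other group.

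Of 20 sums, 11 were higher and 1 was lower in upf1 than in WT, against 59.9% and 0.585% of all features in the same fit. These were cysteine, aspartate, phenylalanine, glycine, isoleucine, leucine, proline, arginine, serine, threonine and tryptophan, and all 11 turned negative when libraries were scaled to the median mRNA (0 higher, 14 lower). With nuclear tRNA totals set equal there was 1 higher and 1 lower. The 11 became 5 without upf1 replicate 1, 4 without upf1 replicate 2 and 6 without WT replicate 2, and the fall of tyrosine did not pass the test without upf1 replicate 2, WT replicate 1 or WT replicate 2, while without upf1 replicate 1 there were 2 lower sums.

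Among the 218 single intervals tested, 29 were higher and 10 were lower in upf1, where 57.7% and 0.622% of all features were. The median log2 difference was 0.00 for the nuclear tRNAs and 1.20 for all features. With libraries scaled to the median mRNA 4 were higher and 72 lower, with nuclear tRNA totals set equal 14 and 22, and the 10 became 20 without upf1 replicate 1 and 22 without upf1 replicate 2. The densest tRNAs that rose included NCAS_0Jtrna4L by 1.22 log2 units (SE 0.26, limma adjusted p = 0.00615), NCAS_0Btrna14A by 1.34 (SE 0.32, limma adjusted p = 0.00988) and NCAS_0Ctrna1G by 1.14 (SE 0.29, limma adjusted p = 0.0128). NCAS_0Atrna12R rose by 0.88 (SE 0.16, limma adjusted p = 0.00257), and all 4 turned negative when scaled to the median mRNA. The call of NCAS_0Btrna14A was lost without upf1 replicate 2 or WT replicate 1 (limma adjusted p up to 0.0701) and that of NCAS_0Ctrna1G without upf1 replicate 1 or 2 (limma adjusted p up to 0.0836).

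The largest called differences rested on a handful of reads. NCAS_0Atrna5W, a tryptophan tRNA, had 0 and 0 reads in WT and 3 and 2 in upf1, and NCAS_0Atrna4T, a threonine tRNA, had 0 and 0 and then 2 and 3. NCAS_0Btrna17L, a leucine tRNA, had more, with 2 and 1 reads in WT and 6 and 17 in upf1, a density 10.4 times as high (log2 3.01, SE 0.45, limma adjusted p = 0.000973). Of the tRNAs that fell, NCAS_0Atrna6I had 1 and 3 reads in WT and 0 and 0 in upf1, NCAS_0Gtrna9N 8 and 2 against 1 and 0, and NCAS_0Etrna9Y 4 and 4 against 0 and 1. The groups do not overlap in any of these because the rule that picked them required it. At such counts the size of the difference cannot be given with any precision. The call of NCAS_0Gtrna9N was lost without upf1 replicate 2 or WT replicate 1, and that of NCAS_0Etrna9Y was kept only without upf1 replicate 2.

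Of the amino acid sums, those of phenylalanine and lysine differed most between WT CHX and untreated WT. Phenylalanine rose 7.64-fold, from 2.12 and 2.19 in WT to 15.9 and 17.1 in WT CHX (log2 2.93, SE 0.10, limma adjusted p = 2.15e-05). Lysine rose 4.77-fold, from 1.44 and 1.33 to 6.69 and 6.55 (log2 2.25, SE 0.13, limma adjusted p = 2.55e-05). In both, every CHX library stood above every WT library by several times. Phenylalanine also rose when libraries were scaled to the median mRNA (log2 0.91) and with equal nuclear tRNA totals (log2 1.81), and lysine kept a positive sign under both but did not pass the test under the former.

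Of 20 sums, 16 were higher and 0 lower by limma (0 lower also at an unadjusted p under 0.05 and 0 by limma voom), against 79.7% and 0.169% of all features, so that the share of sums called was close to the background. The median log2 difference of the sums was 0.80, and that of all features in the same fit 1.52. After phenylalanine and lysine came aspartate (log2 1.69, SE 0.28), serine (1.20, SE 0.18), glutamine (1.13, SE 0.15) and isoleucine (1.07, SE 0.19), with limma adjusted p-values between 0.000359 and 0.00149. Aspartate rested on few reads, 11 and 5 in WT and 12 and 21 in WT CHX. Alanine, glycine, histidine and tyrosine were not called, with log2 differences of 0.54 (SE 0.24), 0.42 (SE 0.25), -0.42 (SE 0.46) and 0.17 (SE 0.28). Scaled to the median mRNA, 14 of the 16 turned negative, all but phenylalanine and lysine (1 sum higher, 16 lower), and with equal nuclear tRNA totals 2 were higher, again phenylalanine and lysine, and 2 lower. Leaving out any 1 library left 10 of the 16 called each time, namely aspartate, phenylalanine, isoleucine, lysine, leucine, proline, glutamine, arginine, serine and threonine, and without WT CHX replicate 1 histidine was lower.

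Among single intervals, 58 of 218 were higher and 3 lower with CHX, where 77.1% and 0.165% of all features were. The median log2 difference was 0.74 for nuclear tRNAs and 1.51 for all features. With libraries scaled to the median mRNA 6 were higher and 53 lower, and with equal nuclear tRNA totals 13 and 14. The 3 became 5 without WT CHX replicate 2, 10 without WT replicate 1 and 9 without WT replicate 2.

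Of the 10 phenylalanine genes, 7 rose and 0 fell with CHX, where 77.1% of all features rose and 0.165% fell. NCAS_0Ctrna1F (chromosome 3, 588442 to 588540, minus strand) had densities of 0.279 and 0.254 in WT and 4.37 and 6.01 in WT CHX, a 19.5-fold rise (log2 4.26, SE 0.16, limma adjusted p = 6.54e-05). NCAS_0Atrna7F (chromosome 1, 2889546 to 2889607, minus strand) went from 0.673 and 0.608 to 7.23 and 6.85 (log2 3.46, SE 0.12), and NCAS_0Atrna6F (chromosome 1, 552754 to 552848, plus strand) from 0.771 and 0.686 to 2.47 and 2.47 (log2 1.76, SE 0.19). WT and WT CHX were far apart for all 3, which were picked as the densest phenylalanine intervals after their values were seen. Without NCAS_0Ctrna1F the sum over the other 9 phenylalanine genes was still 5.98 times as high with CHX, from 1.85 and 1.94 to 11.5 and 11.1.

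The lysine rise came from NCAS_0Btrna12K for the most part. This interval went from 1.08 and 0.947 to 5.89 and 5.73 (log2 2.52, SE 0.12, limma adjusted p = 6.58e-05). The other 21 lysine genes summed to 0.367 and 0.388 in WT and to 0.808 and 0.820 in WT CHX, a ratio of 2.15, and 1 other lysine gene, NCAS_0Atrna9K, was called. Phenylalanine and lysine tRNAs together rose from 3.57 and 3.53 to 22.6 and 23.6, which is 6.52 times, while the other 238 lettered intervals went from 24.3 and 31.4 to 42.9 and 47.3, which is 1.62 times.

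Of the other dense tRNAs, NCAS_0Jtrna4L rose by 0.94 log2 units (SE 0.26, limma adjusted p = 0.0144), NCAS_0Atrna12R by 0.62 (SE 0.16, limma adjusted p = 0.0102) and NCAS_0Ctrna2P by 0.65 (SE 0.17, limma adjusted p = 0.0119), and all 3 turned negative when scaled to the median mRNA or to equal tRNA totals. The first was lost without WT CHX replicate 2 (limma adjusted p = 0.107), the second without WT CHX replicate 2 or WT replicate 2 (limma adjusted p up to 0.0658) and the last without WT CHX replicate 1 or WT replicate 2 (limma adjusted p up to 0.0700). NCAS_0Ctrna1E had 3.47 and 8.28 in WT and 9.04 and 11.4 in WT CHX, with WT replicates far apart, and was not called (log2 0.92, SE 0.42, limma adjusted p = 0.0791). The other large rises rested on few reads, such as 1 and 0 reads in WT and 6 and 4 in WT CHX for NCAS_0Htrna7G, and 1 and 0 against 3 and 6 for NCAS_0Ctrna1M. The 3 that fell did so too: NCAS_0Ctrna2N had 6 and 3 reads in WT and 0 and 0 with CHX, NCAS_0Btrna5Y 1 and 6 against 0 and 0, and NCAS_0Itrna20L 3 and 20 against 1 and 1. The calls of NCAS_0Ctrna1M and of these 3 were each kept in 1 of 4 fits that left out 1 library, NCAS_0Ctrna2N without WT replicate 2 and the others without WT replicate 1.

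Cycloheximide and loss of UPF1 both impair nonsense-mediated decay, and the libraries of each were set against each other. Phenylalanine was 5.84 times and lysine 3.87 times as high in WT CHX as in upf1, where they stood at 2.94 and 2.70 and at 1.51 and 1.91. Their log2 differences were 2.55 (SE 0.10, limma adjusted p = 2.4e-06) and 1.96 (SE 0.13, limma adjusted p = 2.18e-05). Both passed the test under every alternative run.

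In all, 10 sums were higher and 1, histidine, was lower in WT CHX than in upf1, against 25.2% and 22.7% of all features. Asparagine (log2 1.64, SE 0.40), methionine (1.38, SE 0.31), tyrosine (1.13, SE 0.28), glutamine (1.08, SE 0.15) and aspartate (0.90, SE 0.28) were among the 10, with serine, valine and proline. Reads were few for methionine (4 and 6 in upf1, 12 and 11 in WT CHX) and aspartate (9 and 10, then 12 and 21). Histidine had 5 and 4 reads in upf1 and 2 and 1 in WT CHX. Alanine and leucine had log2 differences of 0.00 (SE 0.24 and 0.13). On the median mRNA scale 3 were higher and 8 lower, and with equal nuclear tRNA totals 2 and 7. The 10 became 5 without WT CHX replicate 1 or 2 and 6 without upf1 replicate 1 or 2, the histidine call was lost without WT CHX replicate 2, upf1 replicate 1 or upf1 replicate 2, and phenylalanine, lysine and glutamine were called each time.

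Single intervals gave 47 higher and 7 lower of 218, where 24.0% and 21.8% of all features were, 21 and 16 when scaled to the median mRNA and 22 and 18 with equal tRNA totals. Without WT CHX replicate 1 they were 30 and 4. The median log2 difference was 0.67 for nuclear tRNAs and 0.24 for all features. NCAS_0Ctrna1F was 2.46 (SE 0.16), NCAS_0Atrna7F 2.88 (SE 0.12), NCAS_0Atrna6F 2.94 (SE 0.19) and NCAS_0Btrna12K 2.12 (SE 0.12) higher on the log2 scale, with limma adjusted p-values of at most 5.14e-05. NCAS_0Atrna6F was also the phenylalanine interval that fell in upf1, to 0.390 and 0.265 (log2 -1.17 against WT, SE 0.19, limma adjusted p = 0.00141).

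**Figure D2:**
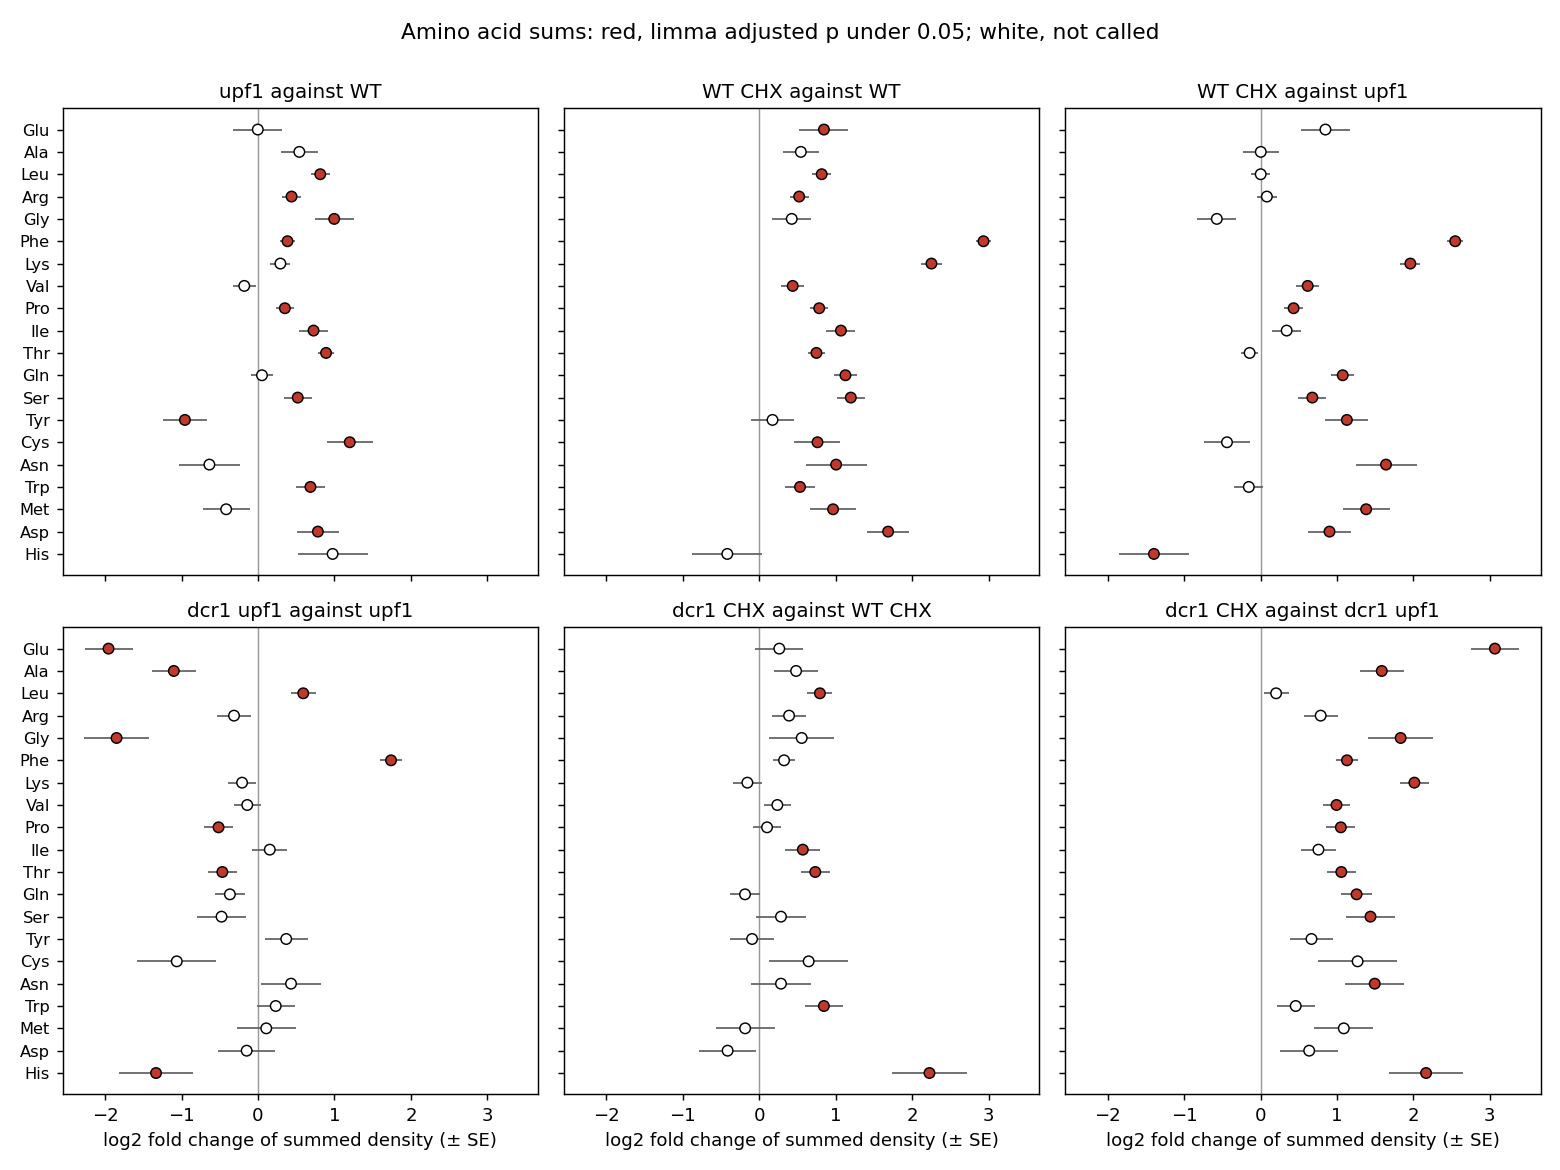
Log2 fold change (± SE from limma) of the summed density of each amino acid in 6 comparisons, with red points at a limma adjusted p under 0.05 and white points not called. Phenylalanine (2.93) and lysine (2.25) lie furthest right for WT CHX against WT, glutamate (-1.95) furthest left for dcr1 upf1 against upf1. On another scaling signs change: 14 of the 16 red points of WT CHX against WT, all 11 of upf1 against WT to the right of 0 and all 6 of dcr1 upf1 against upf1 to the left of 0 change sign when scaled to the median mRNA.

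Loss of Dicer went with opposite moves of different amino acids in upf1 cells, where most other features fell. Phenylalanine tRNAs rose 3.34-fold, from 2.94 and 2.70 in upf1 to 9.66 and 9.20 in dcr1 upf1 (log2 1.74, SE 0.15, limma adjusted p = 1.32e-06). Glutamate tRNAs fell, from 7.76 and 5.47 to 1.65 and 1.71 (log2 -1.95, SE 0.31, limma adjusted p = 0.000202). Glycine tRNAs fell from 4.46 and 4.85 to 0.784 and 2.12 (log2 -1.85, SE 0.42, limma adjusted p = 0.00223), and alanine tRNAs from 5.44 and 7.29 to 2.74 and 3.14 (log2 -1.10, SE 0.28, limma adjusted p = 0.00453). The 2 groups did not overlap in any of the 4, which were picked among the called sums. The share of all features without overlap was not computed.

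Of 20 sums, 2 were higher (phenylalanine and leucine) and 6 were lower (alanine, glutamate, glycine, histidine, proline and threonine), where 0.199% of all features were higher and 85.9% lower. Scaled to the median mRNA all 20 were higher, so that the 6 falls changed sign, and with equal nuclear tRNA totals 2 were higher and 4 lower. The 2 became 4 without upf1 replicate 1, and the 6 became 3 without dcr1 upf1 replicate 1 or upf1 replicate 1. Alanine, glutamate, phenylalanine, glycine and leucine were called with any 1 library left out.

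Among single intervals 11 of 218 were higher and 36 lower, against 0.285% and 83.9% of all features. Their median log2 difference was -0.04, while that of all features was -3.13. With libraries scaled to the median mRNA 139 were higher and 2 lower, and with equal tRNA totals 19 and 28. The 11 became 6 without dcr1 upf1 replicate 2, 17 without upf1 replicate 1 and 18 without upf1 replicate 2.

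The phenylalanine rise was that of 1 interval. NCAS_0Ctrna1F had densities of 0.902 and 0.954 in upf1, from 118 and 139 reads, and 8.39 and 7.59 in dcr1 upf1, from 2376 and 2155 reads (8.61-fold, log2 3.10, SE 0.19, limma adjusted p = 2.79e-07). It passed the test in the same direction under every alternative run. The other 9 phenylalanine genes summed to 2.04 and 1.75 in upf1 and to 1.28 and 1.61 in dcr1 upf1. Among these 9, 1 rose and 4 fell, and NCAS_0Atrna7F (1.04 and 0.877 against 0.682 and 0.815) was not called (limma adjusted p = 0.0891).

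Glutamate fell through NCAS_0Ctrna1E, from 6.72 and 3.89 to 0.621 and 0.692 (log2 -2.96, SE 0.40, limma adjusted p = 7.62e-05). Of 13 tested glutamate genes 4 fell and 0 rose (limma), while NCAS_0Jtrna2E, the next in density, was at 0.683 and 0.991 in upf1 and 0.806 and 0.852 in dcr1 upf1 (limma adjusted p = 0.970). Of 15 tested alanine genes 7 fell and 0 rose, and of all features 83.9% fell. NCAS_0Ctrna1G fell from 3.82 and 4.44 to 0.512 and 1.80 (log2 -2.10, SE 0.53, limma adjusted p = 0.00446), and NCAS_0Btrna14A from 2.31 and 3.92 to 1.01 and 1.47 (log2 -1.30, SE 0.53, limma adjusted p = 0.0446). The latter was lost without dcr1 upf1 replicate 1 or 2 or upf1 replicate 2 (limma adjusted p up to 0.231), while NCAS_0Ctrna1G was called each time, with a log2 difference from -3.01 without dcr1 upf1 replicate 2 to -1.20 without dcr1 upf1 replicate 1. The falls of NCAS_0Ctrna1E, NCAS_0Ctrna1G and NCAS_0Btrna14A changed sign when scaled to the median mRNA.

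Leucine moved the other way, from 5.34 and 5.69 in upf1 to 8.42 and 8.20 in dcr1 upf1 (log2 0.59, SE 0.16, limma adjusted p = 0.00673). NCAS_0Jtrna4L led it, from 3.44 and 3.72 to 6.08 and 5.77 (log2 0.73, SE 0.26, limma adjusted p = 0.0272), a call lost with any 1 of the 4 libraries left out (limma adjusted p from 0.0626 to 0.105). Of the sparse tRNAs with the largest falls, NCAS_0Dtrna3E had 16 and 11 reads in upf1 and 1 and 2 in dcr1 upf1, and NCAS_0Atrna11E 1 and 4 reads against 0 and 0.

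In cells treated with CHX, loss of Dicer went with rises and with no called fall of an amino acid sum. Histidine tRNAs were at 0.0278 and 0.00903 in WT CHX and at 0.118 and 0.0549 in dcr1 CHX (log2 2.23, SE 0.49, limma adjusted p = 0.00158), from 3 reads in all in WT CHX. Leucine tRNAs rose from 5.19 and 5.88 to 9.09 and 10.1 (log2 0.79, SE 0.16, limma adjusted p = 0.0011) and threonine tRNAs from 1.70 and 1.74 to 2.63 and 3.11 (log2 0.73, SE 0.19, limma adjusted p = 0.00446). The groups did not overlap in these 3, which were picked among the called sums, and the share of all features without overlap was not computed.

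In all, 5 sums were higher, with isoleucine and tryptophan beside those 3, and 0 were lower by limma (0 at an unadjusted p under 0.05, 0 by limma voom), against 0.318% and 89.4% of all features. Without WT CHX replicate 1 the 5 became 3. All 20 were higher on the median mRNA scale, and with equal nuclear tRNA totals 1 was, histidine. Phenylalanine (15.9 and 17.1 against 20.9 and 20.4), lysine (6.69 and 6.55 against 6.16 and 5.74) and glutamate (10.5 and 13.1 against 15.4 and 12.9) did not pass the test, with log2 differences of 0.32 (SE 0.15), -0.16 (SE 0.19) and 0.26 (SE 0.31).

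Single intervals gave 32 higher and 12 lower of 218, where 0.608% and 87.1% of all features were, with a median log2 difference of 0.21 against -3.06 for all features. On the median mRNA scale they were 160 and 0, and with equal tRNA totals 15 and 15. Without dcr1 CHX replicate 2 the 32 became 19. NCAS_0Ctrna1F rose by 0.99 log2 units (SE 0.19, limma adjusted p = 0.000923), to 10.7 and 9.69, and NCAS_0Jtrna4L by 0.95 (SE 0.26, limma adjusted p = 0.00739), to 5.41 and 6.01, a call lost without WT CHX replicate 1 (limma adjusted p = 0.0585). The largest differences again rested on few reads, such as 6 and 8 in dcr1 CHX for NCAS_0Ctrna2N, listed at 0 in both WT CHX libraries, and 3 and 11 against 1 and 2 for NCAS_0Atrna5P.

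Whether the change with loss of Dicer differed between upf1 cells and treated cells was tested as an interaction. The change with Dicer loss was more positive under CHX than in upf1 cells for histidine (log2 3.56, SE 0.69, limma adjusted p = 0.00497), glycine (2.40, SE 0.60, 0.0171), glutamate (2.22, SE 0.44, 0.0059), alanine (1.58, SE 0.40, 0.0186) and threonine (1.20, SE 0.27, 0.0103). It was more negative for phenylalanine (log2 -1.42, SE 0.21, limma adjusted p = 0.00114). These are 5 and 1 of 20 sums, against 19.2% and 5.77% of all features. Median mRNA scaling gave 2 and 1, and with equal nuclear tRNA totals 3 and 1. The histidine value rested on 5 and 4 reads in upf1 and 3 and 4 in dcr1 upf1. In WT CHX it rested on 2 and 1 reads, and in dcr1 CHX on 16 and 8. The 5 became 3 without dcr1 CHX replicate 1, WT CHX replicate 1 or 2, or upf1 replicate 2, and glutamate, phenylalanine, histidine and threonine were called each time.

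Single intervals gave 18 and 3 of 218 for this interaction, against 18.4% and 5.29% of all features. The 3 became 5 without WT CHX replicate 2 or upf1 replicate 1 and 6 without upf1 replicate 2. Median mRNA scaling gave 12 and 3, and with equal tRNA totals 8 and 7. The interaction of NCAS_0Ctrna1E was 3.23 (SE 0.56, limma adjusted p = 0.00374) and that of NCAS_0Ctrna1F -2.12 (SE 0.27, limma adjusted p = 0.000858). The strain, the treatment and the loss of UPF1 differ together between the groups of this test and cannot be told apart.

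The 2 groups without Dicer differ from each other by CHX against loss of UPF1 and by strain. All 20 amino acid sums had a higher mean in dcr1 CHX than in dcr1 upf1, and 12 passed the test. Most features lay in the same direction: 5749 of 7727 had a positive log2 difference, with a median of 0.41 over all. Among the sums glutamate rose most, from 1.65 and 1.71 to 15.4 and 12.9 (8.41-fold, log2 3.07, SE 0.31, limma adjusted p = 0.00127). Lysine rose from 1.31 and 1.66 to 6.16 and 5.74 (4.01-fold, log2 2.01, SE 0.19, limma adjusted p = 0.000777). Phenylalanine rose less than with Dicer present, from 9.66 and 9.20 to 20.9 and 20.4 (2.19-fold, log2 1.13, SE 0.15, limma adjusted p = 0.00287), a difference whose test is the interaction above.

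The background was 10.2% of all features higher and 0.292% lower in the fit with the sums. By limma 0 sums were lower (0 at an unadjusted p under 0.05, 0 by limma voom), and leucine, with 8.42 and 8.20 against 9.09 and 10.1, was among the 8 not called (limma adjusted p = 0.478). Scaled to the median mRNA 2 were higher and 1, leucine, was lower, with proline, threonine and valine negative but not called, and with equal nuclear tRNA totals 1 was higher and 1 lower, with those 3 and phenylalanine negative but not called. The 12 became 6 without dcr1 upf1 replicate 1.

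Among single intervals 44 of 218 were higher and 0 lower by limma (89 and 0 at an unadjusted p under 0.05, 69 and 0 by limma voom), where 9.85% and 0.246% of all features were. Median mRNA scaling gave 23 and 1, and with equal nuclear tRNA totals 7 and 0. Without dcr1 upf1 replicate 1 they were 26 and 1, and without dcr1 upf1 replicate 2 or dcr1 CHX replicate 2 the 44 became 29. NCAS_0Ctrna1E rose 18.7-fold, from 0.621 and 0.692 to 13.6 and 10.9 (log2 4.22, SE 0.40, limma adjusted p = 0.00125). NCAS_0Atrna7F rose by 3.19 log2 units (SE 0.18), NCAS_0Btrna12K by 2.20 (SE 0.19) and NCAS_0Btrna9F by 2.96 (SE 0.31), with limma adjusted p-values of at most 0.00199. NCAS_0Ctrna1F, already at 8.39 and 7.59 in dcr1 upf1, had a log2 difference of 0.35 (SE 0.19, limma adjusted p = 0.281).

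The contrast of CHX with loss of UPF1 can be read with Dicer and without it from libraries that are not shared. Of the 10 sums higher in WT CHX than in upf1, 7 were also higher in dcr1 CHX than in dcr1 upf1, which is 70% of the former and 58.3% of the 12 latter. Of all 20 sums, 60% were called higher without Dicer and 50% with it, so the overlap was close to these shares. The 7 are phenylalanine, lysine, asparagine, proline, glutamine, serine and valine. For single intervals the 47 and 44 shared 20, which is 42.6% and 45.5%. Of all tested intervals, 20.2% were called higher without Dicer and 21.6% with it. The overlap over all features was not computed. The Pearson r of the log2 differences was 0.19 over 214 intervals tested in both and -0.01 over the 20 sums, a description across tRNAs of the same libraries.

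**Figure D3:**
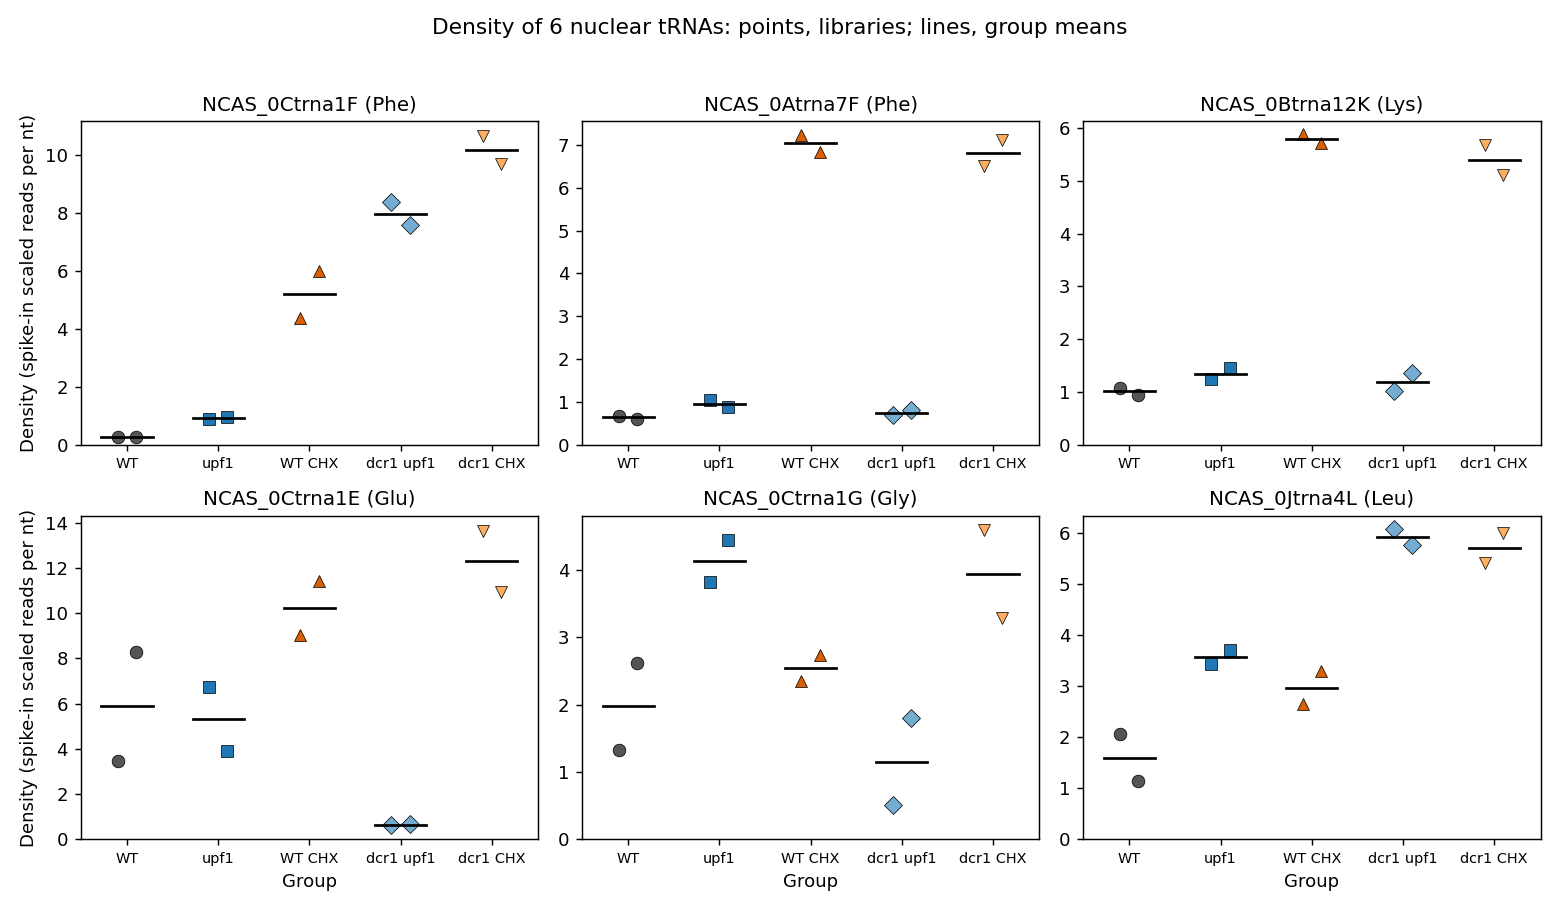
Density (spike-in scaled reads per nt) of 6 tRNA intervals, with 1 point per library and a line at the mean of each group of 2. NCAS_0Atrna7F and NCAS_0Btrna12K are high in the groups with CHX and low elsewhere, NCAS_0Ctrna1F is also high in dcr1 upf1 (8.39 and 7.59), and NCAS_0Ctrna1E is low in dcr1 upf1 (0.621 and 0.692).

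Shares of the lettered density within a library do not depend on the spike-in. Phenylalanine took 6.95% ± 0.962 of it in WT (SD, n = 2 here and below) and 6.69% ± 0.420 in upf1, but 24.2% ± 0.148 in WT CHX. Without Dicer its share was 25.4% ± 3.15 (dcr1 upf1) and 23.6% ± 0.571 (dcr1 CHX). The 3 last groups did not overlap the first 2. Lysine took 4.50% ± 0.965 in WT and 9.72% ± 0.698 in WT CHX, and 3.95% ± 0.313 in dcr1 upf1 and 6.81% ± 0.0416 in dcr1 CHX.

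Glutamate took 21.5% ± 7.27 in WT and 4.50% ± 0.273 in dcr1 upf1, with 15.7% to 17.3% as the means of the other 3 groups. Leucine took 22.3% ± 2.42 in dcr1 upf1, and between 8.10% and 13.1% as the means of the other groups. Alanine, with 14.0% ± 2.82 in WT and 15.1% ± 3.06 in upf1, was at 7.87% ± 0.0523 in dcr1 upf1. In WT the glutamate share was 16.4% in one replicate and 26.7% in the other, both above the 4.70% and 4.31% of dcr1 upf1.

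**Figure D4:**
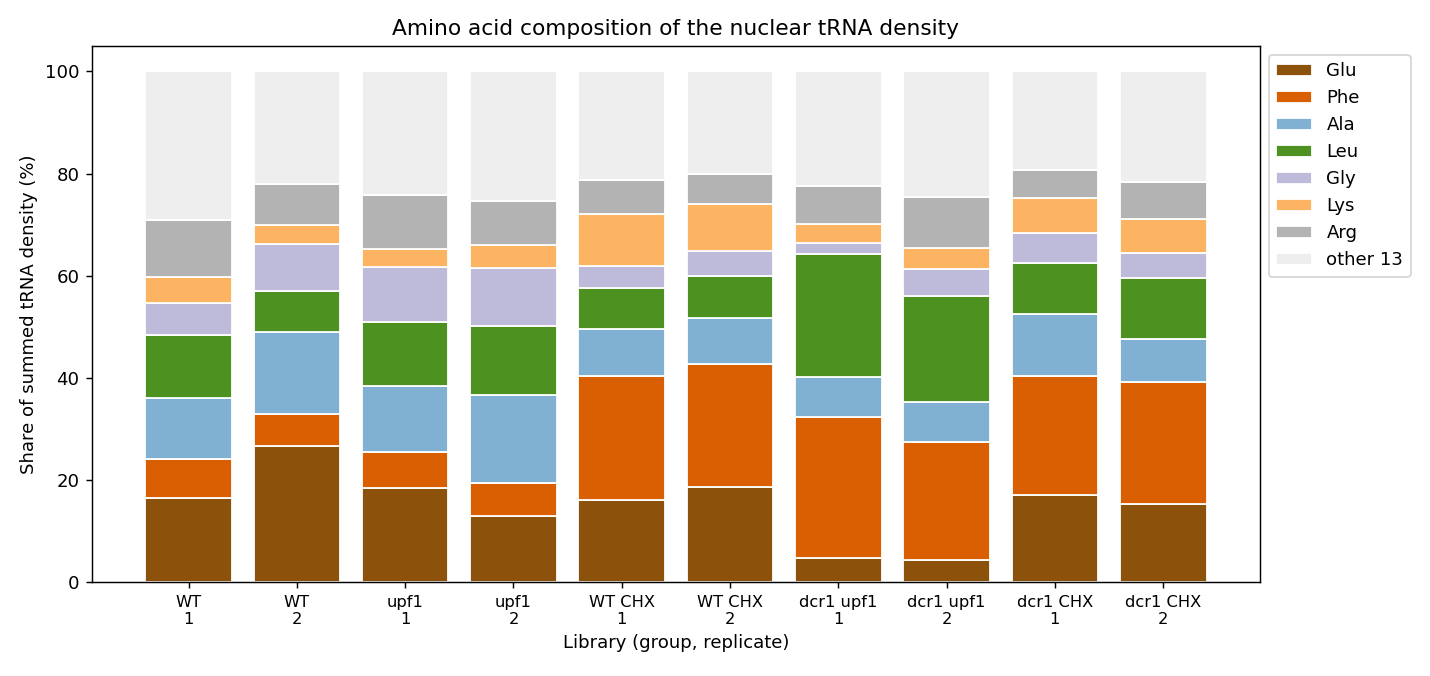
Share (%) of the summed density of lettered nuclear tRNAs that each of 7 amino acids holds in each library, with the other 13 in grey. Phenylalanine takes 6.95% and 6.69% on average in WT and upf1 and 23.6% to 25.4% in the other 3 groups, and glutamate 4.50% in dcr1 upf1.

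The intervals differ in length in a way that follows the amino acid. Of the 270 lettered intervals 207 are 71 to 84 nt long, 52 are 88 to 134 nt long, and 11 on chromosome 1 are cut short. The 52 long ones carry the letters of phenylalanine (9 of 10 genes), leucine (12 of 21), tyrosine (7 of 9), proline (7 of 11), lysine (6 of 22), tryptophan (6 of 7), serine (3 of 21) and isoleucine (2 of 14). In Saccharomyces cerevisiae, tRNA genes with introns are found for these same amino acids. The files mark no introns, and densities were computed over whole intervals.

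Long intervals summed to 7.15 and 6.04 in WT, 10.3 and 11.3 in upf1 and 21.9 and 24.3 in WT CHX. In the groups without Dicer they summed to 20.9 and 20.5 (dcr1 upf1) and to 32.8 and 33.1 (dcr1 CHX). Intervals of 71 to 84 nt summed to 19.4 and 27.8, 30.2 and 29.8, 35.3 and 38.7, 13.0 and 17.9, and 49.9 and 43.8 in the same order of groups. The long class was above WT in every other group, whereas the shorter class was lowest in dcr1 upf1. Against WT the means were 3.51 times as high for long intervals and 1.57 times for those of 71 to 84 nt in WT CHX, and against upf1 they were 1.92 times and 0.516 times in dcr1 upf1. The 11 short intervals were 6.61 times WT in WT CHX and 0.870 times upf1 in dcr1 upf1. Most reads of these 11 in WT CHX lay on the phenylalanine interval NCAS_0Atrna7F, with 86 and 66 reads in WT and 448 and 653 in WT CHX. The ratio without it was not computed. Without NCAS_0Ctrna1F the long class was 2.83 times WT in WT CHX and 1.29 times upf1 in dcr1 upf1. Length and amino acid are not separated by these classes. The long class holds 9 phenylalanine genes and NCAS_0Btrna12K, the lysine interval that rose by log2 2.52 in WT CHX. Lettered intervals of any length without phenylalanine and lysine were 1.62 times WT in WT CHX. The long class without those genes was not computed.

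Among tested long intervals 19 of 46 rose with CHX, and among those of 71 to 84 nt 35 of 153. In upf1 against WT these counts were 11 of 46 and 14 of 153, with 3 and 5 lower. In dcr1 upf1 against upf1 4 of 47 long intervals rose and 5 fell, while 7 of 153 of those of 71 to 84 nt rose and 29 fell. Of all features, 77.1% were higher with CHX, 57.7% were higher and 0.622% lower in upf1, and 0.285% were higher and 83.9% lower in dcr1 upf1.

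**Figure D5:**
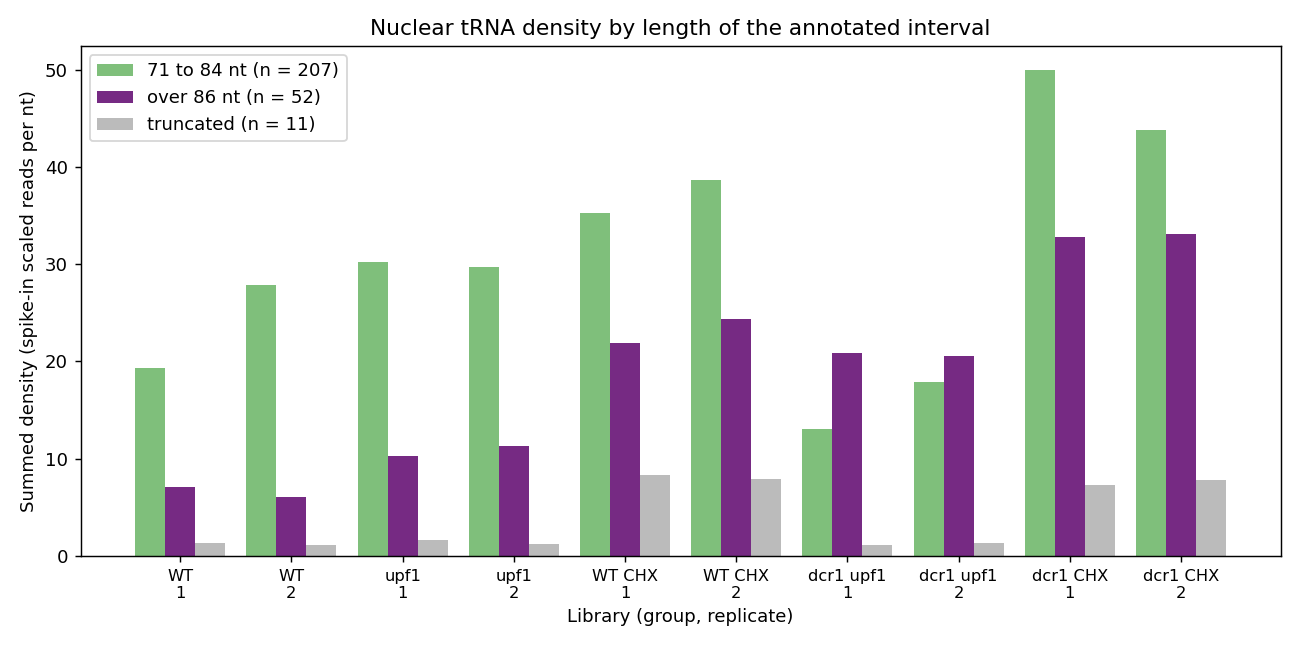
Summed density (spike-in scaled reads per nt) of lettered nuclear tRNA intervals in 3 classes of interval length, for each library. In dcr1 upf1 the 52 long intervals (20.9 and 20.5) exceed the 207 of 71 to 84 nt (13.0 and 17.9), and in every other library the order is the opposite.

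The 11 intervals without a letter allow a part of a tRNA to be set against the whole. Each contains 1 of the 11 short lettered intervals and shares its lower coordinate on the minus strand, so the short interval is the 3′ part of the longer one. All 3340 reads of ENSRNA049596191 (chromosome 1, 2889546 to 2889644) were also counted over NCAS_0Atrna7F, the 62 nt at its 3′ end. The same held for 255 of 256 reads of ENSRNA049596557, which contains the tyrosine tRNA NCAS_0Atrna4Y of 49 nt, and for 255 of 291 reads of ENSRNA049598534, which contains the serine tRNA NCAS_0Atrna9S.

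Pairs differed also within an amino acid. ENSRNA049598599 (748757 to 748844) had 327 reads, and NCAS_0Atrna4P, the 52 nt at its 3′ end, had 0. ENSRNA049597824, another proline interval, had 141 reads, of which 1 was counted over NCAS_0Atrna6P. In the remaining proline pair, all 31 reads of ENSRNA049598418 were counted over NCAS_0Atrna5P. The other tyrosine pair had 39 reads over ENSRNA049597432 and 0 over NCAS_0Atrna3Y. Whether a read that crosses the border of the short interval was counted in it is not given in the sources used here. Reads counted over both members of a nested pair enter the total over 281 intervals in both. With the longer interval used in place of each short one, 10 sums in place of 11 were higher in upf1 than in WT and 16 were higher in WT CHX.

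Mitochondrial tRNAs, transcribed by another polymerase, did not move in the same way. The 23 of them summed to 67.2 and 51.1 in WT and to 47.8 and 48.8 in WT CHX, 0.817 times WT, while nuclear tRNAs were 2.27 times WT. Of the 23, 0 were higher with CHX by limma (0 at an unadjusted p under 0.05) and 2 were lower, where 77.1% and 0.165% of all features were. In dcr1 upf1 they summed to 104 and 109, against 62.6 and 76.7 in upf1, and 6 were higher, where 0.285% of all features were.

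Small RNAs over genes that make and use tRNAs were mostly higher with CHX, as were 77.1% of all features. Of 18 matched cytosolic aminoacyl-tRNA synthetases, the enzymes that load tRNAs, 18 were higher and 0 lower (0 at an unadjusted p under 0.05) in WT CHX than in WT by limma, with a median log2 difference of 1.95 where that of all features was 1.51. The synthetases for lysine (KRS1, log2 3.10, SE 0.30, limma adjusted p = 0.000182) and methionine (MES1, 3.62, SE 0.32, 0.000133) were among the largest, and a phenylalanine synthetase subunit, FRS1, rose by 1.33 (SE 0.20, 0.000975). Of 23 genes of RNA polymerase III and its factors 17 were higher, among them TFC4 (log2 2.97, SE 0.40, limma adjusted p = 0.000635), a subunit of TFIIIC. Of 21 genes of tRNA processing, export and cleavage 15 were higher, among them LOS1 (2.96, SE 0.30, limma adjusted p = 0.000218), which exports tRNAs from the nucleus.

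In upf1 against WT 8, 5 and 10 of these 3 lists were higher, where 57.7% of all features were, with medians of 0.93, 0.71 and 0.93 where all features had 1.20. SEN15 (log2 3.14, SE 0.18, limma adjusted p = 7.73e-06) and SEN34 (2.60, SE 0.32, limma adjusted p = 0.000377), subunits of the tRNA splicing endonuclease, were among them. In dcr1 upf1 against upf1 14 of 18, 20 of 22 and 16 of 21 were lower, where 83.9% of all features were, with median log2 differences of -1.42, -1.97 and -2.35 against -3.13 for all features. These values are small RNAs over each gene's interval, not its mRNA level, and they can be few: KRS1 had 11 and 12 reads in WT and 84 and 96 in WT CHX.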

How the data were processed

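Small RNAs were measured in 10 libraries in 5 groups of 2. The deposited values are a coverage signal, the reads per nt of each annotated interval, scaled by the authors to S. pombe spike-in small RNAs of 22 to 23 nt, per the labels' protocols. Adapter trimming and mapping tools credited in the submitters' processing notes are Trim Galore and Bowtie, with ASM294v2 as the genome of the spike-in species. The sources used here do not give the N. castellii build, the lengths of reads counted or how reads with several matching places were handled. Of 270 lettered tRNAs, 270 have the same start and end in the ASM23734v1 gene table, which also gave symbols. Multiplied by interval length and divided by a library factor, 100% of values were whole reads within 0.001. These reads are not independent molecules, and the replicate spread is the error used. The 5 group means in the file, 92 control sequences and 271 repeated entries were left out of 8770. The members and lists were chosen with earlier results of these data known.

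Densities were tested as log2(density + 0.00145) with limma 3.58.1 (R 4.3.3), group means, moderated variances with a trend, two-sided. The added value was set from the 10th percentile of densities above 0 in each library, taking the median library, and a feature whose mean fell below it was not tested. P-values were adjusted by Benjamini-Hochberg over every feature tested and called at 0.05. Log2 differences are on this scale, which makes changes of sparse features smaller than the ratio of their densities. Where a group has 0 reads, the size of the difference depends on the added value and can be large on few reads. An example is NCAS_0Atrna5W, with log2 4.24 in upf1 against WT from 3 and 2 reads against 0 and 0. Folds are ratios of mean densities. The 6 libraries with Dicer were fitted together for comparisons among them, all 10 for the others. For the sums, tRNA rows were replaced by 1 row for each amino acid. Totals had an exact permutation test, and shares, lengths and orders are descriptions. The rule for named tRNAs takes the 8 densest in WT and, for each comparison, up to 5 of the largest rises and 5 of the largest falls among those called with separated replicates. The sparse ones printed from these, and any other single tRNA given as leading its amino acid, were picked after their values were seen. Scaling to the median mRNA uses 3695 mRNAs. The fit of the 6 libraries with Dicer was also run on simulated data, for upf1 against WT only. There only some of the denser features were changed. That run does not cover changes of sparse tRNAs, the fits of all 10 libraries or the interaction. Same-numbered replicates showed no pairing, with correlations of their deviations between -0.0310 and 0.0202 over 7727 features. Alternatives were other pseudocounts, filters, scalings and sets of libraries, a replicate block, limma voom, full-length intervals and leaving out each library.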

Additional observations from a re-analysis of the deposited data

Results flagged for a closer look

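Each result here was marked because the change with loss of Dicer differed between upf1 cells and cells treated with CHX by the test of that difference, and each value is the log2 change under CHX minus that in upf1 cells. Among amino acid sums the values were 1.58 for alanine, 2.22 for glutamate, 2.40 for glycine and 1.20 for threonine. They were -1.42 for phenylalanine and 3.56 for histidine, which had at most 16 reads in a library. Among single tRNAs they were -2.12 for NCAS_0Ctrna1F, which had 118 and 139 reads in upf1 and 1995 and 1940 in dcr1 CHX. The other 7 rested on few reads, with values of 6.88 for NCAS_0Btrna6H, 6.46 for NCAS_0Dtrna4E, 5.64 for NCAS_0Btrna8T, 5.05 for NCAS_0Atrna11E, 4.45 for NCAS_0Atrna5W, -3.92 for NCAS_0Htrna7G and -1.41 for NCAS_0Gtrna11D. None of these 7 had more than 8 reads in a library. The calls of alanine, glycine, NCAS_0Dtrna4E, NCAS_0Btrna8T, NCAS_0Htrna7G and NCAS_0Gtrna11D were not kept in every fit that left out 1 library. In such fits the value of NCAS_0Dtrna4E ranged from 4.73 to 8.19 and that of glycine from 1.69 to 3.12.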

How the results depend on the processing

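Of the settings run, the scalings moved the most counts. The median log2 difference of all features was 1.20 for upf1 against WT, 1.51 for WT CHX against WT, 0.24 for WT CHX against upf1, -3.13 for dcr1 upf1 against upf1, -3.06 for dcr1 CHX against WT CHX and 0.41 for dcr1 CHX against dcr1 upf1. Scaling to the median mRNA moved these to 0.12, -0.24, -0.39, -1.08, -0.69 and 0.00, and equal nuclear tRNA totals to 0.89, 0.55, -0.38, -3.21, -2.98 and 0.00. Each scaling takes a class of RNA as constant, and which is right was not tested.

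Scaled to the median mRNA, single tRNAs higher and lower numbered 4 and 72 for upf1 against WT, 6 and 53 for WT CHX against WT, 21 and 16 for WT CHX against upf1, 139 and 2 for dcr1 upf1 against upf1, 160 and 0 for dcr1 CHX against WT CHX, and 23 and 1 for dcr1 CHX against dcr1 upf1. Sums numbered 0 and 14, 1 and 16, 3 and 8, 20 and 0, 20 and 0, and 2 and 1 in the same order, and 2 were higher for the interaction. The total was then 0.524 times WT in upf1, 0.563 times WT in WT CHX and 11.6 times upf1 in dcr1 upf1. Without any library factor the recovered reads gave 0.987 for upf1 against WT and 1.82 for dcr1 upf1 against upf1.

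With equal nuclear tRNA totals, single tRNAs numbered 14 and 22 for upf1 against WT, 13 and 14 for WT CHX against WT, and 22 and 18 for WT CHX against upf1. For dcr1 upf1 against upf1 19 were higher, for dcr1 CHX against WT CHX 15, for dcr1 CHX against dcr1 upf1 7, and the interaction had 8 and 7. Sums higher numbered 1 for upf1 against WT, 1 for dcr1 CHX against WT CHX and 3 for the interaction, and sums higher and lower 2 and 2 for WT CHX against WT, 2 and 7 for WT CHX against upf1, and 1 and 1 for dcr1 CHX against dcr1 upf1.

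Scaled to the median mRNA, the log2 differences that changed sign for dcr1 upf1 against upf1 were alanine 2.61, glutamate 1.75, glycine 1.86, histidine 2.21, proline 3.19, threonine 3.24, NCAS_0Btrna14A 2.41, NCAS_0Ctrna1E 0.75 and NCAS_0Ctrna1G 1.61. For WT CHX against WT they were cysteine -1.25, aspartate -0.30, glutamate -1.17, isoleucine -0.95, leucine -1.20, methionine -1.002, asparagine -1.001, proline -1.23, glutamine -0.89, arginine -1.49, serine -0.82, threonine -1.27, valine -1.58, tryptophan -1.46, NCAS_0Atrna12R -1.40, NCAS_0Ctrna2P -1.37 and NCAS_0Jtrna4L -1.07. For upf1 against WT they were cysteine -0.15, aspartate -0.53, phenylalanine -0.96, glycine -0.35, isoleucine -0.62, leucine -0.53, proline -0.995, arginine -0.91, serine -0.83, threonine -0.46, tryptophan -0.65, NCAS_0Atrna12R -0.47, NCAS_0Btrna12K -0.94, NCAS_0Btrna14A -0.0092, NCAS_0Ctrna1G -0.21 and NCAS_0Jtrna4L -0.13. For WT CHX against upf1 they were proline -0.24 and valine -0.051. For dcr1 CHX against dcr1 upf1 they were proline -0.030, threonine -0.024 and valine -0.086. For dcr1 CHX against WT CHX they were ENSRNA049598418 0.55, NCAS_0Atrna5P 0.58 and NCAS_0Etrna18S 0.42. With equal nuclear tRNA totals, the log2 differences that changed sign for WT CHX against WT were cysteine -0.36, glutamate -0.28, isoleucine -0.058, leucine -0.31, methionine -0.14, asparagine -0.12, proline -0.34, arginine -0.60, threonine -0.38, valine -0.69, tryptophan -0.59, NCAS_0Atrna12R -0.51, NCAS_0Ctrna2P -0.48 and NCAS_0Jtrna4L -0.18. For dcr1 CHX against dcr1 upf1 they were phenylalanine -0.10, proline -0.17, threonine -0.17 and valine -0.23. For upf1 against WT they were phenylalanine -0.048, proline -0.083 and NCAS_0Btrna12K -0.029. For WT CHX against upf1 they were proline -0.26, serine -0.014 and valine -0.075.

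Of the other settings, a pseudocount 10 times smaller gave 5 single tRNAs lower in upf1 than in WT, 9 and 1 for the interaction, and 0 sums lower in WT CHX than in upf1. One 10 times larger gave 26 higher in dcr1 CHX than in dcr1 upf1 and 7 lower for the interaction. A filter 10 times higher gave 1 lower in WT CHX than in WT, 3 lower in WT CHX than in upf1 and 20 higher in dcr1 CHX than in WT CHX. With all 10 libraries in the fit, 5 sums were higher in upf1 than in WT. The replicate block gave 16 single tRNAs lower in upf1 than in WT and 2 sums lower in WT CHX than in upf1, and moved no other count by over 1.5 times. Limma voom on the recovered reads, added after seeing the data as were full-length intervals, gave 3 lower in upf1 than in WT, 1 lower in WT CHX than in WT, 2 lower in WT CHX than in upf1, 6 higher in dcr1 upf1 than in upf1, 69 higher in dcr1 CHX than in dcr1 upf1 and 1 lower for the interaction. The cause of these moves was not tested. A planned count model, edgeR with spike-in or TMM factors, was not run. The deposited values are scaled densities, and limma voom on the recovered reads was run in its place.

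Leaving out 1 library at a time, with the lone library of its group assumed to vary like the others, gave these ranges. Single tRNAs higher ranged from 20 to 42 and lower from 12 to 22 for upf1 against WT, 47 to 67 and 3 to 10 for WT CHX against WT, 30 to 46 and 4 to 7 for WT CHX against upf1, 6 to 18 and 30 to 34 for dcr1 upf1 against upf1, 19 to 31 and 9 to 13 for dcr1 CHX against WT CHX, 26 to 31 and 0 to 1 for dcr1 CHX against dcr1 upf1, and 12 to 16 and 2 to 6 for the interaction. Sums ranged from 4 to 8 and 0 to 2, 11 to 15 and 0 to 1, 5 to 6 and 0 to 1, 2 to 4 and 3 to 9, 3 to 5 and 0 to 0, 6 to 11 and 0 to 0, and 3 to 7 and 1 to 1 in the same order. Of 281 intervals, 102 had under 10 reads over all libraries.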
